A study of Mus musculus with 6 samples.

Results

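Splicing factors and heterogeneous nuclear ribonucleoproteins (hnRNPs) were followed as mRNAs in RNA that came down with the mouse germ cell helicase MVH. The set holds every gene whose symbol on the array, or whose current symbol, begins with Sfrs or Srsf and a digit, Hnrp or Hnrnp, Snrp, Sf3a or Sf3b, or Prpf and a digit. This gave 62 genes, read by 64 probes, of 16390 named genes and 23473 probes in all. They fall into 17 SR and related proteins, 14 hnRNPs, 12 proteins of the small nuclear ribonucleoproteins (snRNPs), 8 SF3 subunits and 11 PRP factors. Of the 62 genes, 52 matched by both symbols, 7 by the symbol on the array alone and 3 by the current symbol alone. The group labelled MVH is RNA that an anti-MVH antibody pulled down from testis lysate of C57/BL6 mice, on 2 arrays. The group labelled IgG was handled alike with normal rabbit IgG, on 2 arrays, and the group labelled WCE is testis total RNA with no antibody, also on 2 arrays. All 3 groups are C57/BL6 testis with no genotype or treatment named, the protocol starts each lysate from a pair of testes, and age is not given. Nothing in the labels ties an array number to an animal of its own. The p-values therefore rest on the spread among these arrays, and that spread could be purely technical.

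Splicing factors remove introns from pre-mRNA in the nucleus. The spliceosome is built from snRNPs, each a small nuclear RNA held in a ring of Sm proteins with further proteins attached, and SF3a and SF3b hold the U2 snRNP at the branch point of the intron. SR proteins mostly promote the use of an exon and hnRNPs often oppose it, and many of both kinds also shuttle to the cytoplasm and act on mRNA transport, stability or translation. Testis is known for very rich alternative splicing. MVH (DDX4) is an RNA helicase of the germ cell cytoplasm, so an antibody against it is used here to ask which mRNAs travel with it. The values below are levels of the mRNAs that encode splicing factors, not of the proteins, and not of the splicing that they do.

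The promoters of 4 members that passed the threshold between the precipitates are shown, since they are the genomic context in which the members can be compared. Each is the 250 bases before the start of transcription, 5′ to 3′ on the gene's strand, from RefSeq on GRCm38.p6. Capitals mark 2 motifs searched on both strands, the binding motif of NRF1, written GCGC, any base and TGCGC, and the CCAAT box, written CCAAT. These motifs can overlap only at their ends.
Hnrnpdl (chr5:100039223-100039472, strand -): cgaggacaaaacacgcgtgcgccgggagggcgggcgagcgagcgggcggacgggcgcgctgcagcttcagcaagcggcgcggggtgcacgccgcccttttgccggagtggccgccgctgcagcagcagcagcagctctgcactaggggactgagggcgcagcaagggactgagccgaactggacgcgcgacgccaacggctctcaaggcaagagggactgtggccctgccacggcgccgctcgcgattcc
Hnrnpl (chr7:28810640-28810889, strand +): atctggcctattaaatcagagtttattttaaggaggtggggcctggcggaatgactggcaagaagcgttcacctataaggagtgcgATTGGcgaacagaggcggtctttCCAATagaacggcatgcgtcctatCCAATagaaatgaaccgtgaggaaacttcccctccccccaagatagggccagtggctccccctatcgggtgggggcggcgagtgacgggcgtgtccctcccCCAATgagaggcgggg
Snrpf (chr10:93589659-93589908, strand -): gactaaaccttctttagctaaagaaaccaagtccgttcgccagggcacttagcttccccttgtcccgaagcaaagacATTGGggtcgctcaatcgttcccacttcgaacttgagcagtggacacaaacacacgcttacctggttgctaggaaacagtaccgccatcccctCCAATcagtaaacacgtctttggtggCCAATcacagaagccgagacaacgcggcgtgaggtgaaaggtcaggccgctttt
Snrnp70 (chr7:45395743-45395992, strand -): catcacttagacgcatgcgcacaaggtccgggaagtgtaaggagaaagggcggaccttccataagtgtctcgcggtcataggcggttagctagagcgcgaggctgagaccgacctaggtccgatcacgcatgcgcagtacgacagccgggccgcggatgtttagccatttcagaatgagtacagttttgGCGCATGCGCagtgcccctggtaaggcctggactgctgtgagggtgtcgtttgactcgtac
Snrnp70 held 1 match to the NRF1 motif, Hnrnpl 4 CCAAT boxes and Snrpf 3, and Hnrnpdl held neither. Promoter windows were found for 56 of the 62 members, 14 of which have several starts, and a gene was counted when any window matched. The NRF1 motif was in 13 of the 56 (23.2%), against 4.23% of 27025 genes with a window. CCAAT was in 24 of the 56 (42.9%), against 37.5%, and the TATA box, written TATAAA, in 4 (7.14%), against 14.3%. Median GC content was 60% in the members' windows and 52% in all. The share of all genes with several starts was not counted, so the percentages may rest on unlike amounts of sequence. A match describes these letters only, and the arrays did not measure promoters.

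Before the comparisons, the arrays themselves: the values are probe intensities, which were put on a log2 scale, centred on each array's median and are shown scaled back to an array median of 30. The array of IgG precipitate 2 stood apart, with a deposited median of 20.8 against 30 on the other 5 and 1383 blank probes against 508 to 1063. All 62 members were listed on all 6 arrays. They were mostly bright, with 51 to 53 of the 62 above the array median on each array and values from 3.1 to 26946. Brightness depends on the probe, so levels are not compared between genes. Germ cell markers such as the protamine genes Prm1 and Prm2 were near the top of the scale in every group, as fits the label testis.

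The first comparison set the MVH precipitate against the IgG precipitate, to ask which of these mRNAs came down with MVH beyond what beads and rabbit antibody bring. The mRNA of the hnRNP D-like protein, Hnrnpdl, was 4.83-fold higher with MVH, and those of 9 other members were 2.22-fold to 3.44-fold lower. A linear model over all 6 arrays and all probes (limma, Benjamini-Hochberg adjusted p under 0.05) thus called 1 member higher and 9 lower of 62. Over all 21574 probes tested, 7.97% were called, 3.82% higher and 4.15% lower. The members' shares were 1.61% higher and 14.5% lower. The median log2 difference was -0.41 over the members and 0.07 over all probes. With both MVH arrays below both IgG arrays there were 29 members (46.8%), against 23.8% of all probes, and with both above there were 7 (11.3%), against 29.9%. These shares are a description, because the members were chosen by name with results of these data known.

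How many passed depended on the arrays. With any 1 array left out, fewer members passed, and so did a smaller share of all probes. The members' median was -0.28 without MVH precipitate 1 and -0.58 without MVH precipitate 2. It was -0.51 without IgG precipitate 1, -0.46 without IgG precipitate 2 and -0.41 without either array of total RNA. With only the 4 arrays of the precipitates fitted, 0 members and 0% of all probes passed. With the values as deposited, not centred, only Hnrnpdl passed, against 3.81% of all probes. The median of all probes then moved to 0.34 and that of the members to -0.14. Without the dimmest 25% of probes, 2 members were higher and 17 lower of 60, against 17.8% called of all probes.

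**Figure D1:**
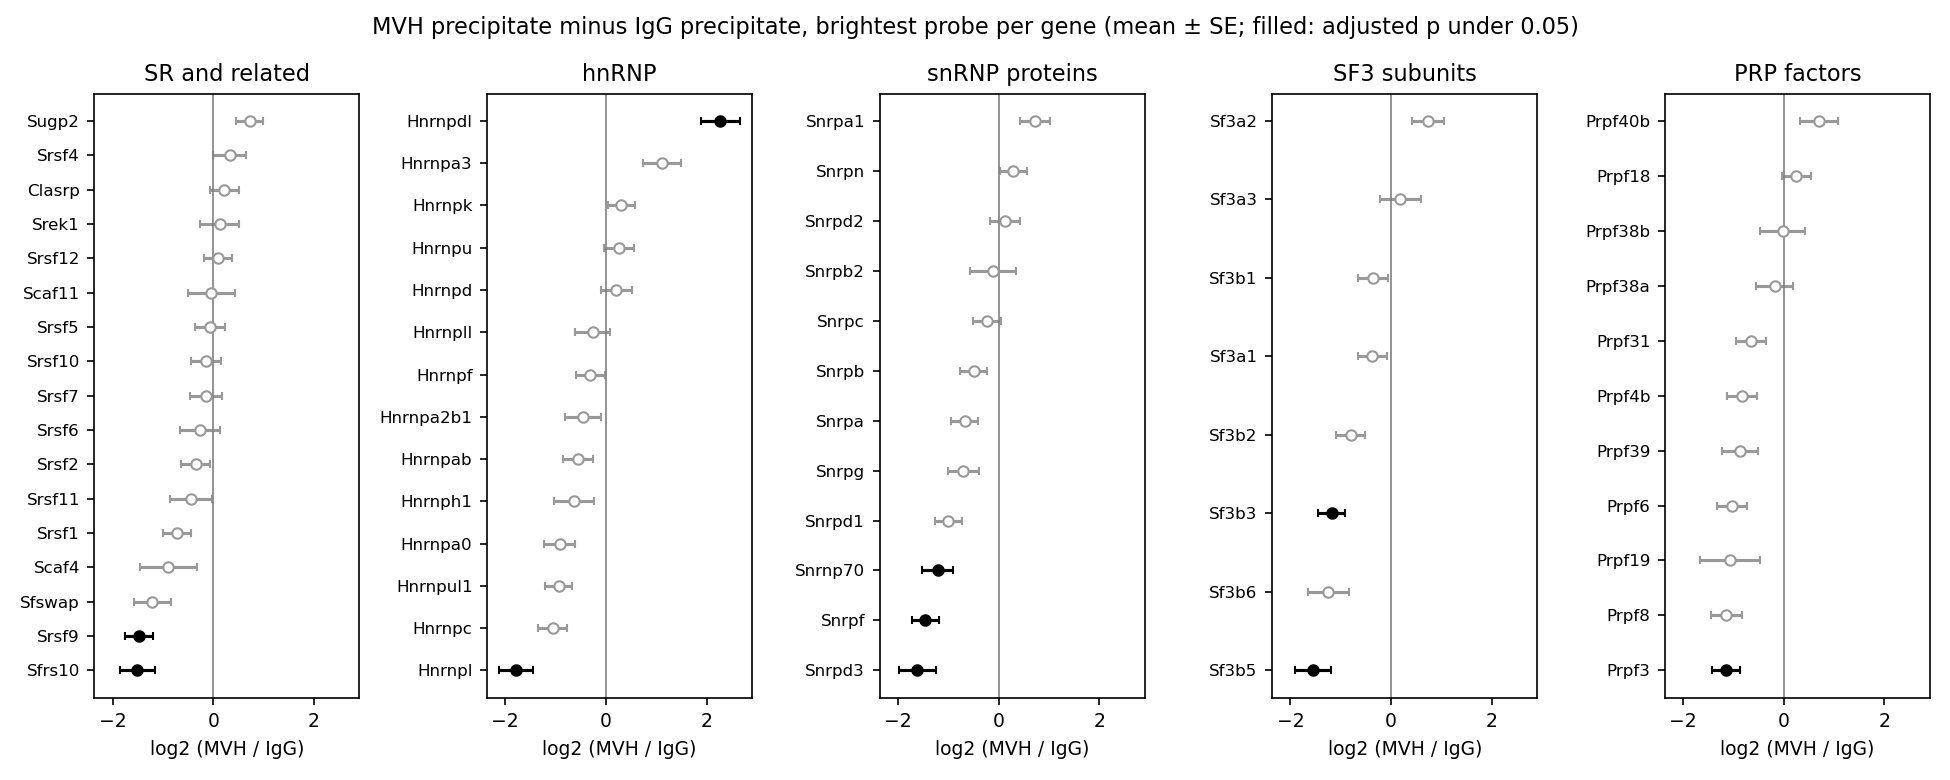
Log2 difference of the MVH minus the IgG precipitate for each of the 62 members at its brightest probe (x axis), in 5 panels by class, with the SE from the linear model and n = 2 arrays per group. Filled points passed the threshold: Hnrnpdl lies at 2.27 on the right, and the 9 lower members lie between -1.15 and -1.78 on the left.

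Among the hnRNPs, Hnrnpdl had scaled intensities of 88.8 and 198 with MVH, against 29.3 and 25.7 with IgG, and 62.2 and 45.5 were read in total RNA. The 2 MVH arrays differed by more than the IgG arrays did, but the groups did not overlap. Its log2 difference was 2.27 ± 0.39 (SE, n = 2 per group, limma adjusted p = 0.0198). Hnrnpdl encodes a relative of AUF1 that binds AU-rich RNA. Over 16 alternative settings the Hnrnpdl difference ranged from 1.69 to 2.85. With only the 4 arrays of the precipitates fitted, Hnrnpdl did not pass (limma adjusted p = 0.0548).

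Hnrnpl moved the other way. Its protein binds CA-rich RNA and regulates many alternative exons. Hnrnpl had 34.5 and 18.5 with MVH, against 80.3 and 93.9 with IgG, while total RNA gave 38.9 and 39.2. Both MVH values lay below total RNA and both IgG values above it. The log2 difference between the precipitates was -1.78 ± 0.34 (adjusted p = 0.0235 by limma). Of the other hnRNPs 0 passed. Hnrnpc, whose protein binds uridine tracts in nascent RNA, had 1459 and 1565 with MVH against 2842 and 3480 with IgG (-1.06, adjusted p = 0.0548). Hnrnpul1 differed by -0.94 (adjusted p = 0.0625) and Hnrnpa0 by -0.92 (adjusted p = 0.0945). Hnrnpa2b1, Hnrnph1, Hnrnpll and Hnrnpf lay between -0.64 and -0.26. On the positive side Hnrnpk, which binds C-rich RNA, had 169 and 141 with MVH against 136 and 115 with IgG (0.31, adjusted p = 0.538). Hnrnpu, a scaffold protein of nuclear RNA, had 6512 and 6883 against 4473 and 6948 (0.26), groups that overlapped, and the dim probe of Hnrnpd differed by 0.21. Hnrnpf, the brightest of the hnRNP probes, had 16992 and 17972 with MVH, 19002 and 24639 with IgG, while total RNA gave 20551 and 26946. Hnrnpab, also bright, had 4313 and 5707 with MVH against 6481 and 8245 with IgG (-0.56, adjusted p = 0.279).

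Hnrnpa3 was read by 2 probes that disagreed. The brighter had 377 and 595 with MVH against 303 and 157 with IgG (log2 1.12 ± 0.38, adjusted p = 0.107), with 303 and 380 in total RNA. The other had 71.3 and 116 with MVH against 170 and 441 with IgG (-1.59 ± 0.45, adjusted p = 0.0655), with 53.9 and 61.6 in total RNA. Neither passed, neither overlapped between the precipitates, and their signs were opposite. HNRNPA proteins form a family of close relatives, and which transcripts each probe reads was not tested. Snrpg also had 2 probes, one at 7821 and 8114 with MVH against 14699 and 11451 with IgG (-0.70) and one far dimmer, at 73.5 and 83.1 against 96.3 and 54.7 (0.11). Neither of them passed.

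**Figure D2:**
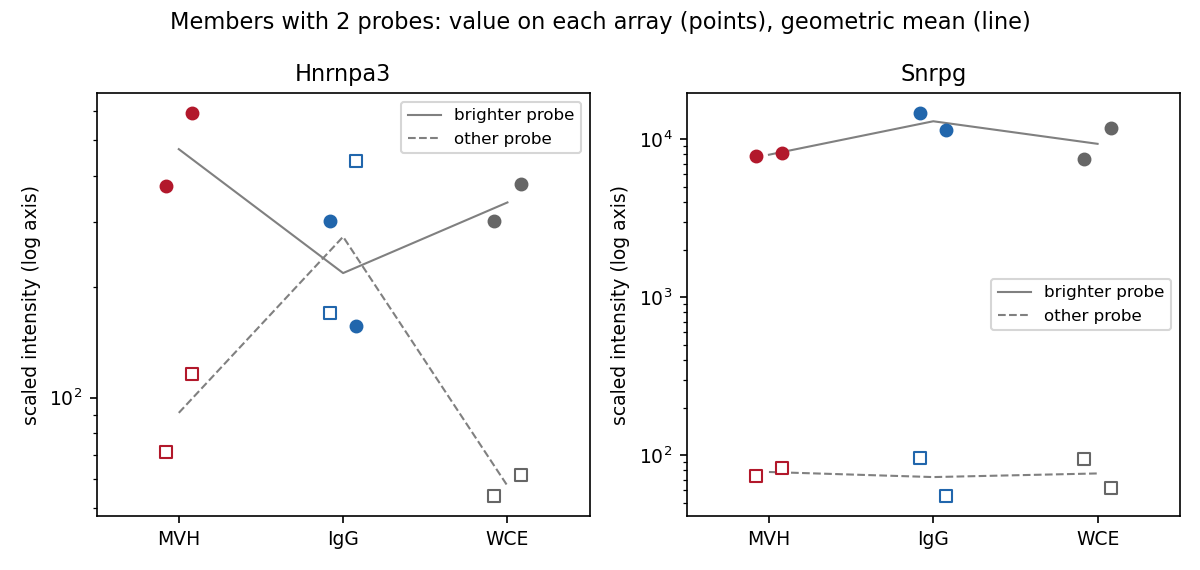
Scaled intensity on a log axis (y) in the MVH precipitate, the IgG precipitate and total RNA (x) for the members with 2 probes, Hnrnpa3 and Snrpg. Points are single arrays and lines join geometric means; the Hnrnpa3 probes run in opposite directions from MVH to IgG.

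Of the 17 SR and related genes, 0 were called higher and 2 lower (11.8%), against 4.15% of all probes called lower. The class median was -0.14, against 0.07 over all probes. With no centring it was 0.12, against 0.34. Srsf9, an SR protein with a pair of RNA recognition motifs, had 1176 and 1208 with MVH, against 3767 and 2877 with IgG, while total RNA gave 1528 and 1730. Both MVH values lay below total RNA and both IgG values above it. The difference was -1.47 ± 0.28 (adjusted p = 0.0231 by limma). The probe named Sfrs10 had 880 and 666 with MVH, against 2757 and 1726 with IgG, while total RNA gave 1673 and 1117 (-1.51 ± 0.35, adjusted p = 0.0362). That symbol has been used for the splicing regulator Tra2b and is an older name of more than one gene in the annotation, so it was kept as the array gives it.

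Of the canonical SR proteins other than Srsf9, 0 passed. Srsf1, a founding SR protein and known proto-oncogene, had 1153 and 1057 with MVH against 1962 and 1689 with IgG (-0.72, adjusted p = 0.145). Srsf2, Srsf6, Srsf7 and Srsf5 differed by -0.35, -0.26, -0.14 and -0.06, and Srsf4 by 0.33. With no centring Srsf5, Srsf6 and Srsf7 turned positive, so no direction is given for them. Srsf10, which represses splicing when it is dephosphorylated, was dim at 6.6 and 8.1 with MVH against 8.0 and 8.08 with IgG, well under the array median. Srsf12 differed by 0.09 and Srsf11 by -0.44. Among the related genes, Sfswap, a regulator related to the fly suppressor-of-white-apricot protein, had 61.6 and 34.8 with MVH against 139 and 82.9 with IgG (-1.21, adjusted p = 0.0788). Sugp2 had the largest positive difference of the class, with 1326 and 1393 with MVH against 862 and 791 with IgG (0.72, adjusted p = 0.124). Srek1, Clasrp and Scaf11 differed by 0.13, 0.22 and -0.04.

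**Figure D3:**
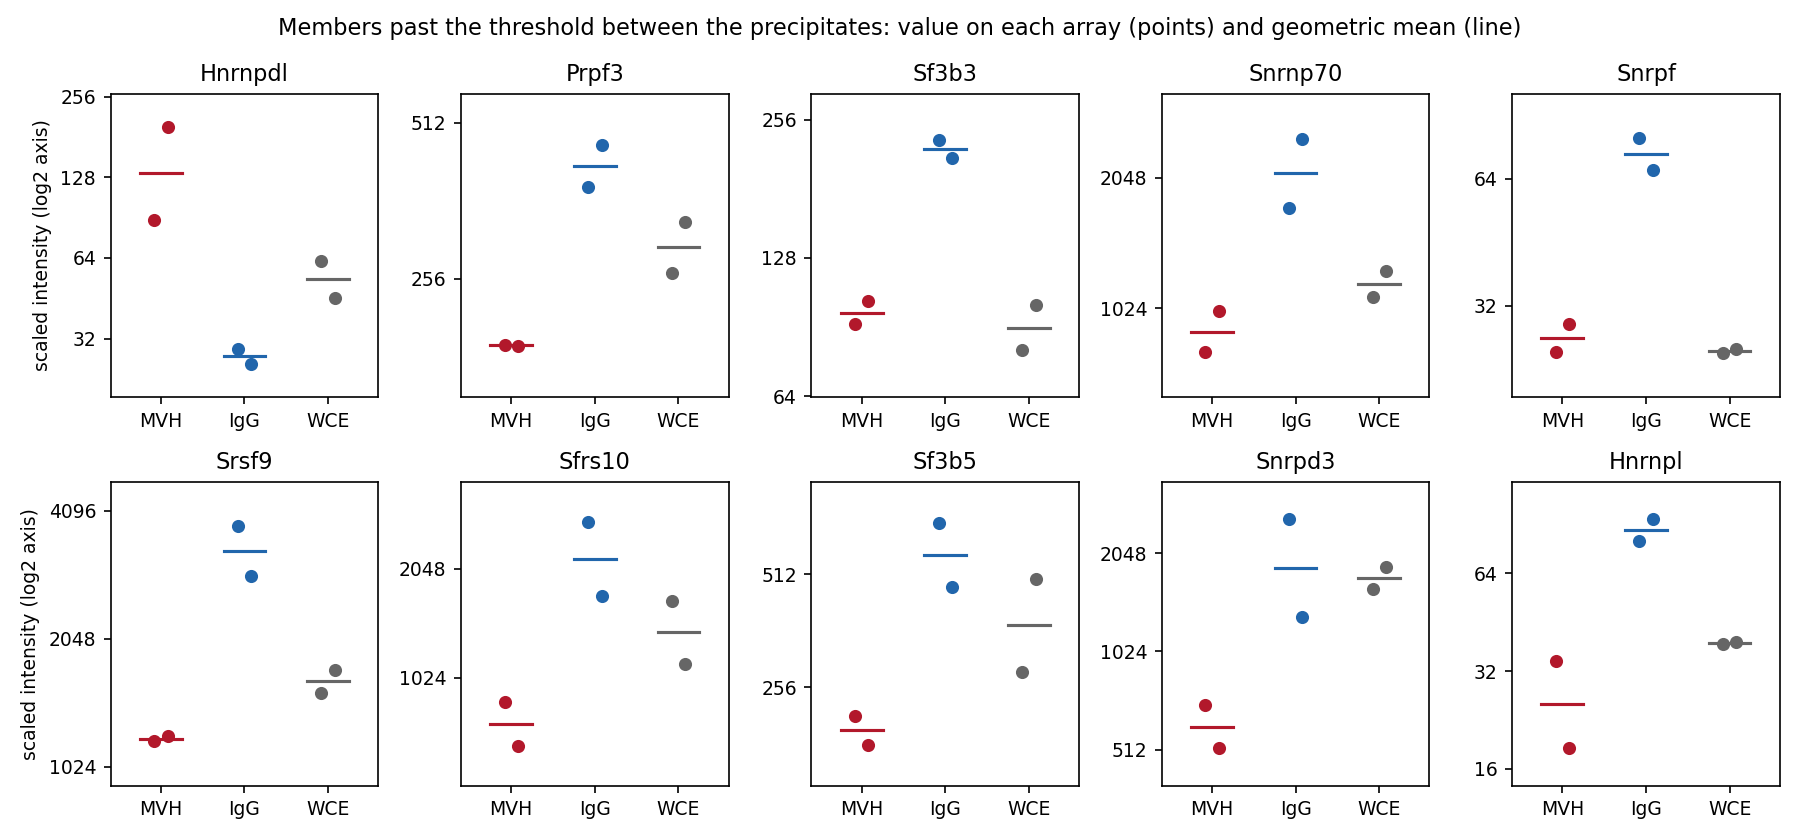
Scaled intensity on a log2 axis (y) on each array of the MVH precipitate, the IgG precipitate and total RNA (x) for the 10 members past the threshold between the precipitates; points are arrays and bars geometric means. In the 9 lower members both MVH points lie under both IgG points, and in Hnrnpdl both lie above.

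The snRNP proteins held 3 lower members (25.0%) and 0 higher of 12, against 4.15% of all probes called lower. Their median was -0.58, against 0.07 over all probes. Snrpd3, a subunit of the Sm ring, had 701 and 517 with MVH, against 2601 and 1306 with IgG, while total RNA gave 1595 and 1863. Its IgG values lay on either side of total RNA and its MVH values below it. The difference was -1.61 ± 0.37 (adjusted p = 0.0358 by limma). Snrpf, another ring subunit, had 24.9 and 28.9 with MVH, against 80.1 and 67.2 with IgG, while total RNA gave 24.7 and 25.3 (-1.45 ± 0.27, adjusted p = 0.0225). Here the MVH values lay close to total RNA and the IgG values stood above both. Snrnp70, the U1 protein that recognises the U1 RNA, had 811 and 1008 with MVH, against 1742 and 2519 with IgG, while total RNA gave 1085 and 1248 (-1.21 ± 0.30, adjusted p = 0.0438).

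Within the Sm ring, 5 of the 6 measured subunits were negative and Snrpd2 was the exception under each of the 4 scalings tried. Changing or leaving out the centring shifts all probes of a contrast alike, so the scalings are not separate support, here or below. Snrpd1 had 5194 and 5419 with MVH against 10346 and 10949 with IgG (-1.0, adjusted p = 0.0566). Snrpb differed by -0.49 (adjusted p = 0.294). Snrpd2 had 11924 and 11792 with MVH against 9892 and 11850 with IgG (0.13, adjusted p = 0.831), and 17290 and 26516 in total RNA. Both precipitates were thus below total RNA for Snrpd2, by -0.85 with MVH and -0.98 with IgG, neither past the threshold. Of the other U1 proteins, Snrpa differed by -0.67 and Snrpc by -0.23, which turned positive with no centring. The U2 protein Snrpa1 differed by 0.72 (adjusted p = 0.166), at 1710 and 1975 with MVH against 1049 and 1186 with IgG. Snrpb2 was dim, at 3.6 and 5.0 against 3.1 and 6.78. Snrpn, an imprinted gene whose protein closely resembles that of Snrpb, differed by 0.29 (adjusted p = 0.547).

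Next came the SF3 subunits, with 0 called higher and 2 lower (25.0%) of 8, against 4.15% of all probes called lower. Their median was -0.59, against 0.07 over all probes. The 5 SF3b subunits that the naming rule takes in all had both MVH values under both IgG values, as 23.8% of all probes did. Of these subunits 2 passed the threshold, and all 5 were negative under each of the 4 scalings. Sf3b5, a small subunit, had 215 and 180 with MVH, against 703 and 475 with IgG, while total RNA gave 282 and 498 (-1.55 ± 0.36, adjusted p = 0.0359 by limma). Sf3b3, a scaffold of the complex, had 91.9 and 103 with MVH, against 231 and 211 with IgG, while total RNA gave 80.5 and 101 (-1.18 ± 0.27, adjusted p = 0.0367). The Sf3b3 values with MVH overlapped those of total RNA, while those of Sf3b5 lay below it. Sf3b6, which contacts the branch point, had 55.5 and 87.1 with MVH against 198 and 138 with IgG (-1.25, adjusted p = 0.0956). Sf3b2, bright at 1622 and 1490 against 2989 and 2440, differed by -0.80, and the dim probe of Sf3b1, the largest subunit and a known cancer gene, by -0.36. In SF3a, Sf3a1 differed by -0.37, Sf3a3 by 0.18 and Sf3a2 by 0.73, with 149 and 170 for Sf3a2 with MVH against 120 and 77.0 with IgG (adjusted p = 0.193), and 0 of the 3 passed. The difference between the complexes was not tested.

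**Figure D4:**
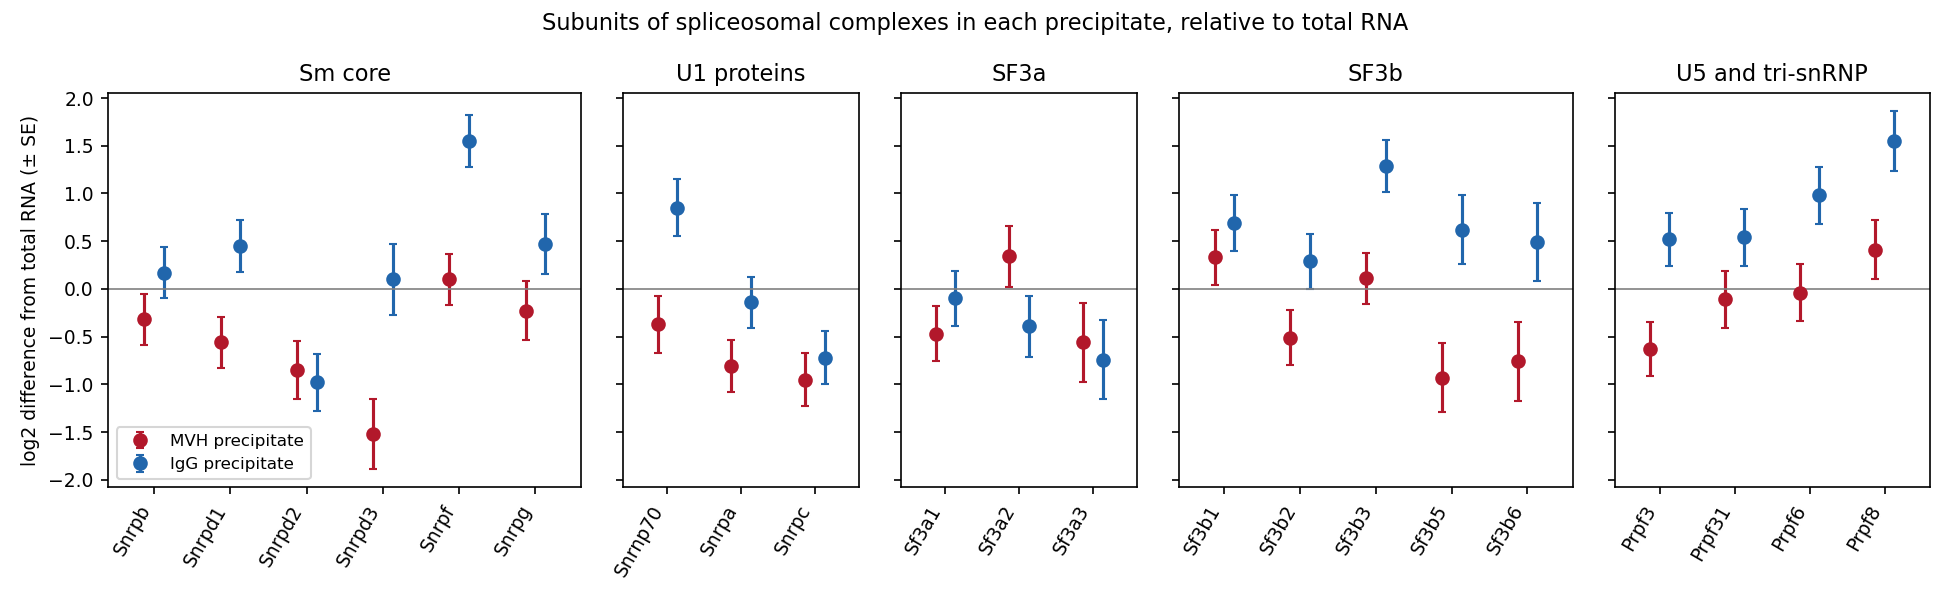
Log2 difference from total RNA (y, ± SE from the linear model, n = 2 arrays per group) in the MVH precipitate and in the IgG precipitate for subunits of 5 complexes (x); both differences share the total RNA arrays. Among the genes plotted, all taken in by the naming rule, the IgG points lie above the MVH points for the 5 SF3b subunits, the 4 Prpf-named U5 and tri-snRNP factors and 5 of 6 Sm subunits.

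Of the 11 PRP factors, 0 were called higher and 1 lower (9.09%), against 4.15% of all probes called lower. Their median was -0.83, against 0.07 over all probes. Prpf3, a protein of the U4/U6 snRNP, had 191 and 190 with MVH, against 385 and 465 with IgG, while total RNA gave 263 and 330 (-1.15 ± 0.28, adjusted p = 0.0403 by limma). The MVH arrays agreed closely and lay below total RNA, and the IgG arrays lay above it. Prpf8, the U5 protein at the heart of the spliceosome, had 119 and 112 with MVH against 241 and 268 with IgG (-1.14, adjusted p = 0.0603). Prpf6, which bridges U5 and U4/U6, differed by -1.02 (adjusted p = 0.0697) and Prpf31, a U4/U6 protein, by -0.65 (adjusted p = 0.216), at 347 and 430 with MVH against 513 and 716 with IgG. These 4 factors of the tri-snRNP were negative under each of the 4 scalings. They are the Prpf-named ones only, grouped with their values known, and other proteins of U5 did not all run the same way: Eftud2, the U5 GTPase, differed by 0.04 (adjusted p = 0.955) and Txnl4a by 0.29 (adjusted p = 0.566). Prpf4b, a kinase, differed by -0.83 and Prpf39 by -0.87. Prpf38a, bright in all groups, had 646 and 1119 with MVH against 1253 and 739 with IgG (-0.18), and the groups overlapped. Prpf38b and Prpf18 differed by -0.02 and 0.25. Prpf40b had 125 and 70.9 with MVH against 44.2 and 75.3 with IgG (0.70, adjusted p = 0.283), which also overlapped.

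RNA with MVH was compared with total RNA next, to ask for enrichment over abundance. With limma, 0 of the 62 members passed in either direction, where 0.0138% of 21793 probes did (0.00459% higher and 0.00918% lower). At an unadjusted p under 0.05 there were 12 members (19.4%), against 8.93% of all probes. The median difference was -0.10 over the members and -0.02 over all probes. Hnrnpdl had the largest positive difference, 1.32 ± 0.39 (adjusted p = 0.351), and Srek1 came next with 1.15 ± 0.39 (adjusted p = 0.414). Prpf40b, Srsf4 and Prpf39 differed by 0.89, 0.86 and 0.71. Snrpd3 had the largest negative one, -1.52 ± 0.37 (adjusted p = 0.258), followed by the ubiquitin ligase of the spliceosome, Prpf19, with -1.43 ± 0.59 (adjusted p = 0.522). Snrpb2, Snrpc and Sf3b5 differed by -0.98, -0.95 and -0.93. Both MVH arrays lay below both total RNA arrays for 22 of the 62 members (35.5%), against 21.6% of all probes, and above for 13 (21.0%), against 18.7%. By class, 8 snRNP proteins lay below and 0 above, 5 hnRNPs below and 3 above, 4 SF3 subunits below and 2 above, 3 PRP factors below and 3 above, and 2 SR genes below and 5 above.

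The third comparison set the precipitate made with normal rabbit IgG against total RNA, which had no antibody. Each array was centred on its own median, so the values are relative and not amounts of RNA brought down. What sets these groups apart was not tested. Again 0 of 62 members passed with limma, where 0.00934% of 21413 probes did, and 18 members (29.0%) had an unadjusted p under 0.05, against 18.2% of all probes. The median was 0.29 over the members and -0.10 over all probes. Both IgG arrays lay above both total RNA arrays for 25 members (40.3%), against 20.0% of all probes, and below for 9 (14.5%), against 29.6%. The largest positive differences were those of Prpf39 (1.58 ± 0.36, adjusted p = 0.0824), Snrpf (1.55 ± 0.27, adjusted p = 0.0545), Prpf8 (1.55 ± 0.31, adjusted p = 0.0664), Sf3b3 (1.29 ± 0.27, adjusted p = 0.0709) and Hnrnpl (1.15 ± 0.34, adjusted p = 0.129). The largest negative ones were -0.98 for Snrpd2, -0.96 for Hnrnpdl, -0.86 for Snrpb2, -0.74 for Sf3a3 and -0.72 for Snrpc. Snrpf passed in 6 of 16 alternative settings, with limma adjusted p from 0.0061 to 0.349.

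The 3 comparisons share arrays, so their values are set side by side and not related by a test. The 9 members lower with MVH than with IgG took different positions against total RNA. Snrpd3 lay at -1.52 with MVH and 0.10 with IgG, both relative to total RNA. Sf3b5 lay at -0.93 with MVH and 0.62 with IgG, Sfrs10 at -0.84 and 0.67, and Prpf3 at -0.63 and 0.52. Snrpf lay at 0.10 with MVH and 1.55 with IgG, Sf3b3 at 0.11 and 1.29, and Srsf9 at -0.45 and 1.02. Hnrnpl had -0.63 with MVH and 1.15 with IgG, and Snrnp70 had -0.37 and 0.85. Hnrnpdl, the higher one, had 1.32 with MVH and -0.96 with IgG.

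Other genes of the splicing pathway, outside the naming rule, were read from a separate list of 108 genes, 93 of them on the array. Between the precipitates 92 were tested, and limma called 1 higher and 10 lower (1.09% and 10.9%), against 3.82% and 4.15% of all probes, with a median of -0.07 against 0.07. Ddx20, a helicase of the SMN complex that assembles Sm rings, was the one higher, at 37.8 and 47.9 with MVH against 11.1 and 18.2 with IgG (1.58 ± 0.37, adjusted p = 0.0377). Its partner Smn1 was lower, at 223 and 137 against 547 and 367 (-1.36, adjusted p = 0.046). Lsm3, of the ring on U6, differed by -1.95, Ptbp3 by -1.71, Rbm25 by -1.63, Sart3, which recycles U4/U6, by -1.61 and Snrnp200, the U5 helicase, by -1.47. Pcbp1 differed by -1.37, Ewsr1 by -1.27, the SF3b component Phf5a by -1.10 and the tri-snRNP cyclophilin Ppih by -1.09. Against total RNA, 0 of the list passed with limma in either precipitate, with 15 of 93 (16.1%) at an unadjusted p under 0.05 for MVH, against 8.93% of all probes, and 20 of 92 (21.7%) for IgG, against 18.2%. The count of 11 between the precipitates became 0 when only the 4 arrays of the precipitates were fitted, where 0% of all probes passed. It was 1 with no centring, against 3.81% of all probes, and 23 of 82 without the dimmest 25% of probes, against 17.8%. The count was also lower with any 1 array left out.

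Some markers of other testis cells differed between the same precipitates, where 3.82% of all probes were called higher and 4.15% lower. Of 6 Leydig cell markers on the array, 0 were higher and 4 lower with MVH, and their summed scaled intensity was 512 and 494 with MVH, against 3004 and 1888 with IgG, while total RNA gave 662 and 1134. Of 6 peritubular and vascular markers, 4 were tested, and 0 were higher and 2 lower. Pecam1 was blank on IgG precipitate 1 and Cdh5 on IgG precipitate 2, so neither was tested. The sum was 543 and 347 with MVH, against 3157 and 1463 with IgG, while total RNA gave 408 and 503. Most of it came from Acta2, at 502 and 295 with MVH against 3037 and 1388 with IgG. Of 8 Sertoli cell markers 0 passed, with sums of 3404 and 3500 with MVH against 6050 and 5386 with IgG, most of it from Clu, while 6 of the 8 were positive and their median was 0.07. Of 4 macrophage and blood markers 0 passed, with sums of 82.3 and 89.3 against 73.7 and 65.9. Of 10 germ cell markers 2 were higher, Pgk2 and Sycp3, and 0 lower, with a median of 0.22. Their summed intensity was 255071 and 335469 with MVH against 243569 and 319303 with IgG, but Prm1, Prm2 and Tnp1 make up most of it, and Prm2 and Tnp1 shared the array's highest value on both total RNA arrays, so the sum does not show whether germ cell RNA was level. The mRNA of MVH itself, Ddx4, had 1396 and 1559 against 1468 and 1391 (0.05, limma adjusted p = 0.944). Only markers listed on all 4 arrays of the precipitates were tested, and of these the Leydig markers Star and Hsd17b3 and the peritubular marker Cnn1 were dim. These values compare RNA recovered in precipitates of testis lysate, and why the markers differed between them was not tested. The part of these cells in the values of the splicing genes was not tested either.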

How the data were processed

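RNA of 6 samples was amplified, labelled with Cy5 and hybridised to 1 array each, per the labels' protocols. The authors deposited probe intensities, linear and positive. How they scanned, scaled or background-corrected them, and when a cell was left blank, is not given in the sources used here. A passage of the protocols on liver tumours and miRNA was not used. Probes were named from the platform annotation, with symbols updated through RefSeq (GRCm38.p6): 12622 were current, 3947 updated and 62 unmatched, and 6842 probes had no symbol. Intensities were converted to log2 and centred on the array median. The fit used limma 3.58.1 in R 4.3.3 over all probes and arrays, with 3 residual and 5.77 prior degrees of freedom. A probe was tested where all 4 arrays of a contrast were listed, with Benjamini-Hochberg adjustment over those probes at 0.05. The fit was also run on simulated data, where recovery was required only for changes larger than those of the called members. The median SE of a log2 difference was 0.307, and the number of arrays limits the precision. A gene is read at its probe with the highest mean. Named are members past the threshold, the 10 largest differences each way between the precipitates and the 5 each way in the other contrasts, the brightest 2 of each class in total RNA, and called genes of the other splicing list; any further member is named to account for the whole set, with its value known. The members and lists were chosen with earlier results of these data known, and subunits were grouped by complex with their values known. Alternatives were other scalings, filters, an offset of 4, a variance trend, fewer arrays, a replicate block and averaged probes.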

Additional observations from a re-analysis of the deposited data

How the results depend on the processing

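Between the MVH and IgG precipitates there were 10 calls, where 7.97% of all probes were called. Percentages in brackets in this paragraph are such shares of all probes. With no centring there was 1 call (3.81%), and without the dimmest 25% of probes there were 19 (17.8%). An offset of 4 before log2 gave 17 (13.7%), and a variance trend with robust prior gave 19 (14.6%). The calls thus rose over all probes as well in these last 3 settings. With only the 4 arrays compared fitted, there were 0 (0%). Leaving out 1 array at a time gave 0 to 9 calls, with the lone array assumed to vary like the other groups. The members' median was -0.14 with no centring and -0.58 to -0.28 with 1 array left out. Against total RNA, the 0 calls for MVH became 1 with the variance trend (0.826%), and the median was -0.18 to -0.06 with 1 array left out. The 0 calls for IgG became 1 with quantile normalization (0.658%), 1 with 75th percentile centring (0.985%) and 6 without the dimmest 25% of probes (6.74%). They became 6 with the offset (5.08%), 4 when each probe had to be listed on 6 arrays (2.21%) and 7 with the variance trend (5.85%). The median for IgG was 0.03 with no centring and 0.18 to 0.38 with 1 array left out. The array numbers pair the samples by number only: the deviations of same-numbered arrays correlated at 0.157 (MVH and IgG), 0.156 (MVH and WCE) and 0.101 (IgG and WCE). With the replicate number as a block there were 14 calls between the precipitates (10.5%), which held all 10. The added ones were Hnrnpc (limma adjusted p = 0.0411), Snrpd1 (0.0472), Prpf8 (0.0487) and Sfswap (0.039). Against total RNA the block gave 0 calls for MVH (0.0184%) and 1 for IgG (0.701%), Prpf39 (limma adjusted p = 0.0484). Without centring, IgG precipitate 2 kept its deposited median of 20.8, against 30 on every other array. Some other settings held fewer arrays or probes. What lay behind the changes in the calls was not tested. No called member changed sign in any of the 16 alternatives, but most of these could not have changed a sign. Several leave the log2 differences between the precipitates as they are. The called members did not overlap between the precipitates, so leaving out 1 array cannot reverse them either. Of all 2970 member values under these alternatives 118 changed sign, none of a called member.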

Other observations

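A few members were uneven within a group. Prpf19 had 16.7 and 18.6 with MVH, against 80.3 and 17.2 with IgG, while total RNA gave 44.0 and 51.5, so that only IgG precipitate 1 was high. Without IgG precipitate 2 its log2 difference between the precipitates was -2.19 (limma adjusted p = 0.033), the only one of 16 alternatives past the threshold (adjusted p from 0.033 to 0.959), against -1.07 (adjusted p = 0.299) with both. Scaf4, an SR-related protein that binds RNA polymerase II, had 21.4 and 16.7 with MVH, against 69.2 and 17.7 with IgG, while total RNA gave 26.9 and 16.4. Its difference was -1.87 (limma adjusted p = 0.0396; 0.0396 to 0.915 over the alternatives) without IgG precipitate 2 and -0.89 (adjusted p = 0.373) with both.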
